A study of Mus musculus with 8 samples.

Results

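A set of 10 genes of liver macrophages were examined in whole liver of mice with colitis. They are Clec4f, Cd5l, Marco, Vsig4, Timd4 and Cd163, which mark the resident macrophages of the liver called Kupffer cells, and Adgre1, C1qa, C1qb and C1qc, which macrophages of many tissues express. The genes were listed by name, and for each the array row that names it alone was read. All 10 were found, of 22180 genes with a row of their own, and each of the 10 had 1 such row.

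RNA came from the liver of 8 mice labelled as C57BL/6 females aged 6 weeks. All 8 had taken 3% dextran sulfate sodium (DSS), which injures the lining of the colon, in drinking water for 7 days. The labels place 4 mice in a wild-type group and 4 in an IL-10 knockout group, in which the gene of the anti-inflammatory cytokine interleukin-10 is disrupted in the whole animal. The series so compares 2 genotypes that share the DSS treatment, and no mice without DSS are part of it. The sources used here do not give how the mutation was made. The labels count mice but tie no array to a litter or cage, and a p-value therefore speaks only of the spread among these 8 samples, which may be technical. Values are log2 levels from robust multi-array averaging (RMA) and a gene was called when its Benjamini-Hochberg adjusted p from limma over all 22180 genes was below 0.05.

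Kupffer cells line the liver sinusoids and clear particles, bacteria, dying cells and free hemoglobin from portal blood. Their resident state is known to depend on signals from neighbouring endothelial, stellate and hepatocyte cells and on transcription factors such as Nr1h3, Id3 and Spic. After their loss, monocytes from blood can fill the niche, and new cells acquire resident markers such as Clec4f early and Timd4 late. C1q, the first component of the classical complement pathway, is assembled from A, B and C chains, and macrophages are its main source. RNA of whole liver does not separate a change in the number of macrophages from a change in RNA per macrophage, and this holds for every value below.

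The arrays carried liver RNA, but parts of their labels did not match the values. The 7 measured hepatocyte genes lay at or above percentile 99.3 of all genes by mean level. Xist, made from the inactive X chromosome of females, read 11.68 to 11.82 in replicates 3 and 4 of both groups and 5.62 to 6.32 in replicates 1 and 2. Eif2s3y, Kdm5d and Uty, which lie on the Y chromosome, read between 8.03 and 8.71 in replicates 1 and 2 and between 4.08 and 4.61 in replicates 3 and 4. The 4 arrays with Y-linked signal thus went against the label of female mice, and there were as many of them in each group. Il10 itself was higher with the knockout label. It read 4.90 to 5.08 in wild-type arrays and 5.69 to 6.41 in the others (log2 difference 1.00, SE 0.14; limma adjusted p = 0.00851; higher in 4 of 4 arrays). Where its probes lie relative to the mutation is unknown here. The row therefore does not check the genotype, and each direction below rests on the labels. "Knockout" below means the arrays labelled so.

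The sequences before the starts of these genes are shown because the macrophage regulators Spi1 (PU.1) and Spic, which bind the same kind of DNA site, are measured further below. RefSeq promoter windows of build GRCm38.p6 matched 8 of the 10 genes: Clec4f, Cd5l, Marco, Vsig4, Timd4, Cd163, C1qb and C1qc. The 250 bases before the start are given 5′ to 3′ on the strand of the gene for 4 genes that were called and for Clec4f. Capitals mark the PU.1 core, searched as GAGGAA on both strands, so that it also appears as TTCCTC.
C1qb (chr4:136886201-136886450, - strand): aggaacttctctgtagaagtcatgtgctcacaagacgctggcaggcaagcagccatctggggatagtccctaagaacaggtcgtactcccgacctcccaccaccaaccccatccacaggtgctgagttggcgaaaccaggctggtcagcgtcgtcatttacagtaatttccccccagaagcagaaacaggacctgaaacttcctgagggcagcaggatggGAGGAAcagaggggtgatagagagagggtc
C1qc (chr4:136892915-136893164, - strand): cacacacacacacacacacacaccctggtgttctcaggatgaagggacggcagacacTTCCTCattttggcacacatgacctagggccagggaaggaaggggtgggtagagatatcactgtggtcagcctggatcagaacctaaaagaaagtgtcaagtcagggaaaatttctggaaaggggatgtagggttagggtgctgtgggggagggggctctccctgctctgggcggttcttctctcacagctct
Vsig4 (chrX:96293439-96293688, - strand): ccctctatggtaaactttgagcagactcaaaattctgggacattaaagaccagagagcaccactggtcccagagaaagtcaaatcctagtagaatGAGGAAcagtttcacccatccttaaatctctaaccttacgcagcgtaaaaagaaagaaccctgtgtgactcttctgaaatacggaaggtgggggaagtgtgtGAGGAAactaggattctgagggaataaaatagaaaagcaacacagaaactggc
Cd163 (chr6:124304401-124304650, + strand): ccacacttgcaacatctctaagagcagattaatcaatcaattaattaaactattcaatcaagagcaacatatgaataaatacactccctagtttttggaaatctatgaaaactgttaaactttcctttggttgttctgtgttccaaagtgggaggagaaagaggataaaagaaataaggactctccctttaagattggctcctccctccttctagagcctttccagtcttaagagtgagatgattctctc
Clec4f (chr6:83656117-83656366, - strand): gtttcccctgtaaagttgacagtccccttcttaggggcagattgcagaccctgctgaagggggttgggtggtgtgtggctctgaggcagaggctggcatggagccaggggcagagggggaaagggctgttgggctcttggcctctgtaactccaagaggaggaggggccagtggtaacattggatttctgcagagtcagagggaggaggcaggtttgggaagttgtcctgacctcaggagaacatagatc
The PU.1 core was present in 5 of the 8 windows (C1qb, C1qc, Cd5l, Marco and Vsig4, with 2 matches in Vsig4) and in 23.3% of 32851 promoter windows of the same length. Cd163 and Clec4f held none. C1qb held it 30 bases before the start and C1qc 193 bases before the start. TGCTGA, part of the site of MAF factors, was in 4 of the 8 windows (C1qb, Cd5l, Clec4f and Timd4), against 16.1% of all. The STAT site TTCNNNGAA, of the kind that the IL-10 signal transducer STAT3 binds, was in 0 of the 8 and in 7.02% of all. No match of 1 motif overlapped a match of another. A match is a run of letters only, and binding was not measured here.

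Of the 10 Kupffer cell and C1q genes, 5 rose in knockout livers. Cd5l, Vsig4, Cd163, C1qb and C1qc rose, while Clec4f, Marco, Timd4, Adgre1 and C1qa had positive differences that did not pass (limma adjusted p = 0.0507 to 0.173). The difference was above 0 for all 10, from 0.30 (C1qa) to 1.20 (Marco) on the log2 scale. Over all 22180 genes limma called 3.15% in either direction and 1.56% as higher in knockout (347 higher and 352 lower, or 236 and 393 with every array set to a common median). All 4 knockout arrays lay above all 4 wild-type arrays for 7 of the 10 genes, against 7.20% of all genes. The groups overlapped for Clec4f, Adgre1 and C1qa. Genes of other leukocytes moved in the same arrays. The log2 of the summed level of 14 monocyte genes was 10.21 to 10.41 in wild-type and 10.81 to 11.21 in knockout arrays, and that of 14 neutrophil genes 10.58 to 10.87 and 11.16 to 11.86. Such a sum weighs rows of high level most. The neutrophil row of highest wild-type mean was Prtn3 (8.93), which was lower in knockout arrays. By these sums knockout replicate 3 was the lowest knockout array for the monocyte genes (10.81) and the highest for the neutrophil genes (11.86). By the median deviation from the wild-type means, the lowest knockout array for monocyte genes was replicate 2 (0.29, replicate 3 at 0.30). For neutrophil genes replicate 3 stayed the highest (1.00). The part of monocyte and neutrophil genes in the values of Kupffer cell and C1q genes was not tested.

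**Figure D1:**
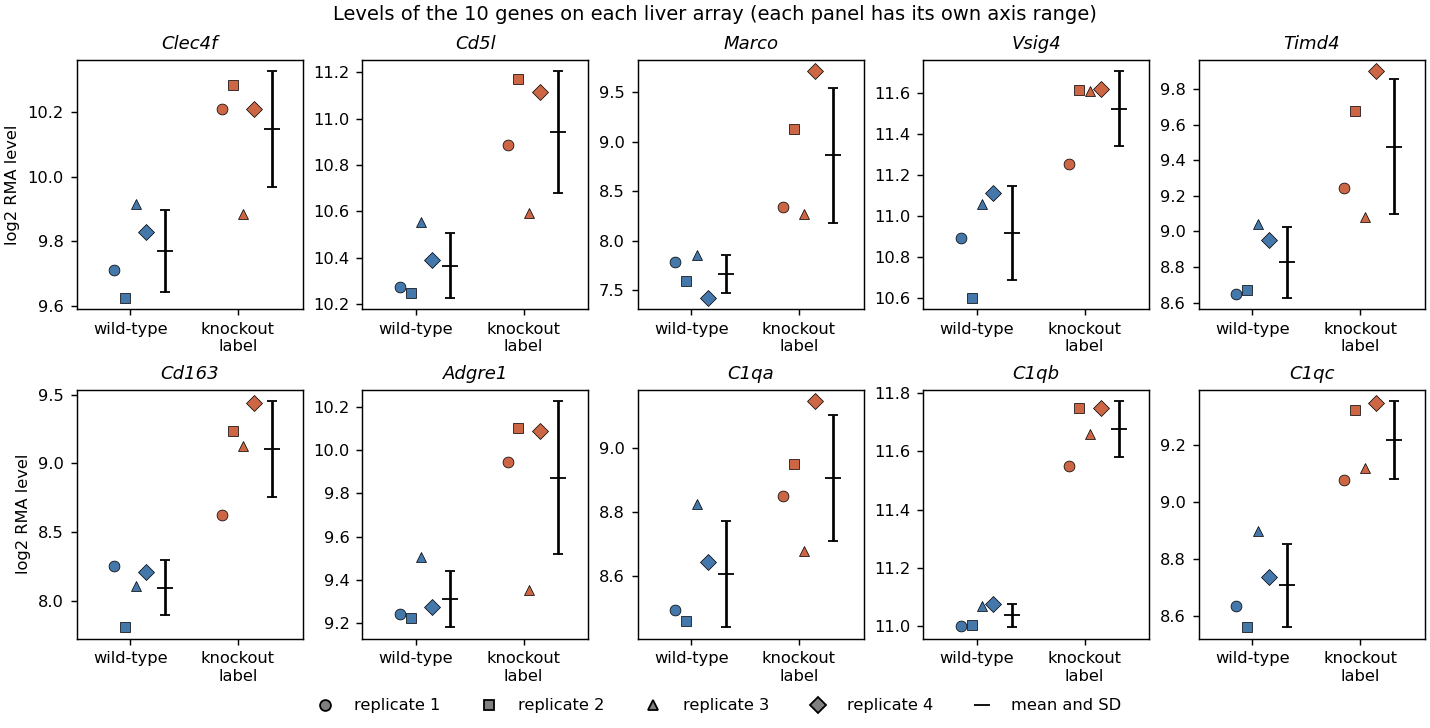
Log2 RMA level (y axis, a separate range in each panel) of the 10 genes in wild-type and knockout-labelled arrays (x axis), with 1 symbol per replicate number and the mean with SD beside each group. Knockout replicate 3 (triangle) sits at or near the wild-type values for Clec4f, Cd5l, Timd4, Adgre1 and C1qa, and well above them for Vsig4, Cd163 and C1qb.

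The resident markers are described first. Clec4f, a lectin receptor for galactose-bearing ligands that in mice is largely restricted to Kupffer cells, read 9.71, 9.62, 9.92 and 9.83 in the wild-type arrays, replicates 1 to 4 in order here and throughout. Its knockout values were 10.21, 10.28, 9.89 and 10.21. Knockout replicate 3 fell within the wild-type range and the other 3 knockout arrays lay above it. The difference was 0.38 (SE 0.10; 95% interval 0.15 to 0.61; 1.30-fold; limma adjusted p = 0.0769), the smallest among the 6 resident markers. Without knockout replicate 3, its lowest knockout array, it was 0.46 and passed (limma adjusted p = 0.0283). Without any 1 other array it did not pass (adjusted p = 0.1075 to 0.1825).

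Timd4, a receptor for phosphatidylserine on dying cells and a marker of long-resident Kupffer cells, read 8.65, 8.67, 9.04 and 8.95 in wild-type arrays. It read 9.24, 9.68, 9.08 and 9.90 in knockout arrays, so that its lowest knockout value lay only 0.04 above the highest wild-type value. The difference was 0.65 (SE 0.18; 95% interval 0.26 to 1.04; 1.57-fold; limma adjusted p = 0.0767). It passed without knockout replicate 3, its lowest knockout array (0.78; adjusted p = 0.0398), and not without any 1 other array (adjusted p = 0.0619 to 0.1884). Cd5l, a secreted scavenger protein of macrophages that supports their survival, was also lowest among knockout arrays in replicate 3. Its levels were 10.27, 10.25, 10.55 and 10.39 in wild-type arrays against 10.89, 11.17, 10.59 and 11.11 in knockout arrays. It rose by 0.57 (SE 0.13; 1.49-fold; limma adjusted p = 0.0441; 4 of 4 knockout arrays above all wild-type arrays). This call was lost without any 1 array other than knockout replicate 3 (adjusted p = 0.0527 to 0.128), and without that array it was 0.0128.

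Cd163, the scavenger receptor for hemoglobin bound to haptoglobin, had the largest difference among the 5 of these genes that passed. Wild-type levels were 8.25, 7.81, 8.11 and 8.21, and knockout levels 8.62, 9.24, 9.13 and 9.44. All knockout arrays were above all wild-type arrays, and replicate 1 was the lowest knockout array. The rise was 1.01 (SE 0.17; 95% interval 0.64 to 1.38; 2.02-fold; limma adjusted p = 0.0148), and it passed with each of the 8 arrays left out in turn (adjusted p = 0.00328 to 0.0461).

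Vsig4, a complement receptor that binds C3 fragments on bacteria, was at 10.89, 10.60, 11.06 and 11.11 in wild-type arrays. Knockout replicates 2, 3 and 4 read nearly the same value, 11.61, 11.61 and 11.62, and replicate 1 read 11.25. The rise of 0.61 (SE 0.13; 1.52-fold; limma adjusted p = 0.0350; groups apart) was lost without wild-type replicates 1, 2 or 3 or knockout replicates 2, 3 or 4 (adjusted p = 0.0672 to 0.102). Vsig4 lies on the X chromosome. Beside genotype, it was lower in arrays with Y-linked than with Xist signal by 0.26 (difference -0.26, SE 0.10). This did not pass adjustment over all genes (limma adjusted p = 0.682), which does not show that the sets were alike.

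Marco, a scavenger receptor with a collagen-like stalk that binds bacteria, had the largest difference of the 10 genes and the widest spread. It read 7.78, 7.59, 7.85 and 7.42 in wild-type arrays and 8.34, 9.12, 8.27 and 9.71 in knockout arrays, with no overlap. The knockout SD was 0.68, against 0.19 in wild-type arrays. The difference of 1.20 (SE 0.28; 95% interval 0.57 to 1.82; 2.29-fold) had limma adjusted p = 0.0507, just short of the threshold. It passed without knockout replicate 1 (1.37; limma adjusted p = 0.0301) or replicate 3 (1.39; adjusted p = 0.0308), and with the Xist or Y-linked signal of the arrays as a block (1.20; adjusted p = 0.0482). With that block 6 of the 10 genes were called, Marco beside the 5 above, and 1038 of all genes. Over 21 alternatives its adjusted p ran from 0.0274 to 0.203. Marco is the only gene of the 10 on chromosome 1, where it lies 10.5 Mb from Il10 in GRCm38.p6.

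**Figure D2:**
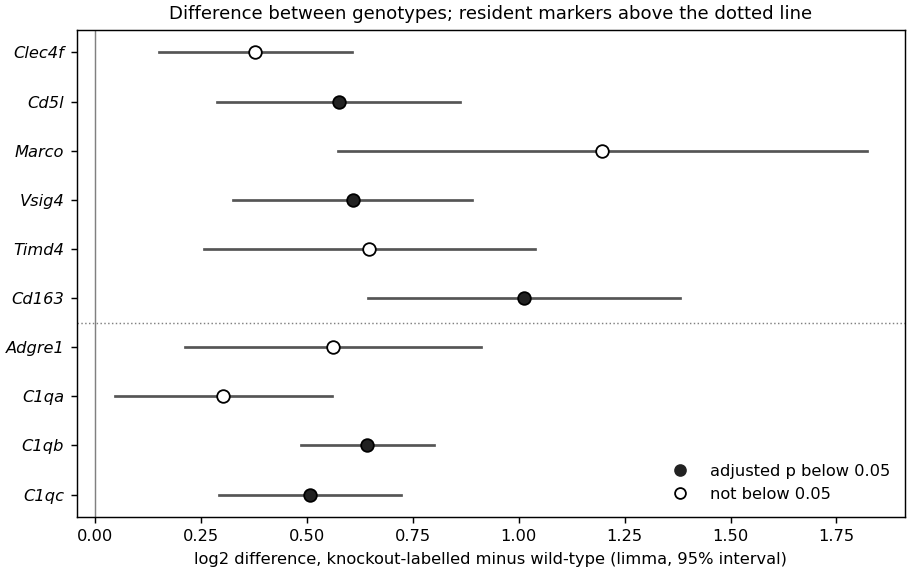
Log2 difference between knockout-labelled and wild-type arrays (x axis) of each gene (y axis) from limma, with its 95% interval as a bar and filled points for adjusted p below 0.05. All 10 intervals lie above 0, C1qb has the narrowest (0.49 to 0.80) and Marco the widest (0.57 to 1.82). An interval leaves out 0 when the unadjusted limma p is under 0.05. Of all 22180 genes, 4699 had an unadjusted limma p of 0.04998 or less, in either direction.

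Among the general macrophage genes, Adgre1, which encodes the F4/80 surface antigen, read 9.24, 9.22, 9.50 and 9.28 in wild-type arrays. Knockout replicates 1, 2 and 4 read 9.94, 10.10 and 10.09, and replicate 3 read 9.35, inside the wild-type range. The difference was 0.56 (SE 0.16; 95% interval 0.21 to 0.91; 1.48-fold; limma adjusted p = 0.0826). Without knockout replicate 3, its lowest knockout array, it was 0.73 (adjusted p = 0.00939). Without any 1 other array it did not pass (adjusted p = 0.1185 to 0.1996).

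Of the 3 C1q chains, C1qb and C1qc rose and C1qa did not pass, and the differences of the chains were not tested against each other. C1qb, the B chain, read from 10.999 to 11.07 in the 4 wild-type arrays and 11.55, 11.75, 11.66 and 11.75 in knockout arrays. It had the smallest SE of the 10 genes, rising by 0.64 (SE 0.07; 1.56-fold; limma adjusted p = 0.00587), and passed with each of the 8 arrays left out (adjusted p = 0.00315 to 0.0239). By p it ranked 10 of 22180 genes. C1qc, the C chain, read 8.64, 8.56, 8.90 and 8.74 against 9.08, 9.32, 9.12 and 9.34, a rise of 0.51 (SE 0.10; 1.42-fold; limma adjusted p = 0.0253) that was lost without wild-type replicates 1, 2 or 4 or knockout replicates 2 or 4 (adjusted p = 0.0536 to 0.0812). C1qa, the A chain, read 8.49, 8.46, 8.83 and 8.64 against 8.85, 8.95, 8.68 and 9.15. Its groups overlapped through knockout replicate 3, and its difference of 0.30 (SE 0.12; 95% interval 0.05 to 0.56; 1.23-fold) did not pass (limma adjusted p = 0.173; 0.0890 to 0.638 over 21 alternatives). The chains are adjacent genes within 18.7 kb of chromosome 4 in GRCm38.p6, in the order C1qb, C1qc, C1qa. Levels of different rows are not comparable between genes, so only the differences are set side by side.

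In the array labelled knockout replicate 3 the genes ran from near the wild-type mean to well above it. Relative to the mean of the wild-type arrays it was higher by 0.04 for Adgre1, 0.07 for C1qa, 0.12 for Clec4f, 0.23 for Cd5l and 0.25 for Timd4. In the same array C1qc was higher by 0.41, Marco by 0.61, C1qb by 0.63, Vsig4 by 0.69 and Cd163 by 1.03. It was the lowest knockout array for 6 of the 10 genes and replicate 1 for the other 4. In knockout replicate 4, the highest array for 7 genes, the range was 0.44 (Clec4f) to 2.04 (Marco). Wild-type replicate 2 was the lowest wild-type array for 7 genes and replicate 3 the highest for 7. With array weights estimated by limma, knockout replicate 3 had the smallest weight of the 8 (0.447, the others 0.965 to 1.25). With these weights 9 of the 10 genes were called, and 817 of all genes (3.68%). Leaving out knockout replicate 3 gave 8 of 10, without Vsig4 and C1qa, and 577 of all genes (2.60%).

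**Figure D3:**
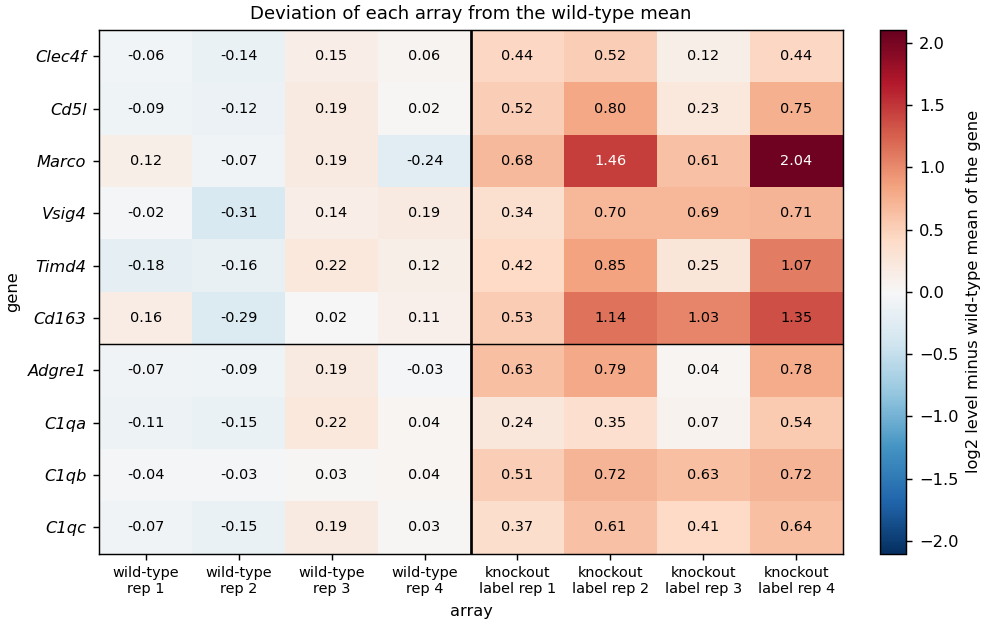
Log2 level of each gene (rows) on each array (columns) minus the wild-type mean of that gene, with the colour scale in the same unit and resident markers above the horizontal line. The column of knockout replicate 3 holds small values for Adgre1 (0.04) and C1qa (0.07) beside 1.03 for Cd163.

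The number of calls depended on single arrays. It was 2 of 10 without wild-type replicate 1, wild-type replicate 2, knockout replicate 2 or knockout replicate 4, where Cd163 and C1qb were the 2 called. It was 3 without wild-type replicate 3 or 4, 5 without knockout replicate 1 and 8 without knockout replicate 3. Over all genes the calls numbered 207, 237, 238 and 410 without wild-type replicates 1 to 4, and 1040, 529, 577 and 207 without knockout replicates 1 to 4. Within the 4 arrays with Xist signal the differences ranged from 0.18 (Clec4f and C1qa) to 1.35 (Marco), and within the 4 with Y-linked signal from 0.42 (C1qa) to 1.04 (Marco). No gene had a detectable difference between these sets in its genotype effect (limma interaction adjusted p = 0.904 to 0.997; unadjusted p = 0.0539 for Clec4f, at 0.58 with Y-linked and 0.18 with Xist signal, and 0.154 or more for the other 9).

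Resident markers were then set against Adgre1 as the general macrophage gene, by subtracting the log2 level of Adgre1 on the same array. Marco relative to Adgre1 was higher by 0.64 in knockout arrays (SE 0.26), and 3 of 4 knockout arrays exceeded every wild-type array (exact two-sided permutation p = 0.0571; 0.257 adjusted over the 9 genes compared). Cd163 relative to Adgre1 was higher by 0.45 (SE 0.25; exact p = 0.114; adjusted 0.257). Clec4f relative to Adgre1 had a difference of -0.18, with knockout replicates 1, 2 and 4 at -0.19, -0.28 and -0.34 against the wild-type mean and replicate 3 at 0.07 (exact p = 0.114; adjusted 0.257). C1qa had -0.26 (exact p = 0.114; adjusted 0.257). Cd5l (0.01), Vsig4 (0.05), Timd4 (0.09), C1qb (0.08) and C1qc (-0.05) had exact p of 0.514 or more, and no value of these 5 passed. Without knockout replicate 3 the values of Cd5l, Vsig4 and C1qb became -0.04, -0.16 and -0.09, those of Cd163 and Timd4 0.27 and 0.04, and that of C1qc -0.20. In knockout replicates 1, 2 and 4 C1qa lay at -0.39, -0.45 and -0.23 and Marco at 0.04, 0.67 and 1.27. In these 3 arrays Clec4f and C1qa lay below every wild-type array. In knockout replicate 3 they lay at 0.07 and 0.03, inside the wild-type range. Adgre1, which is subtracted, was itself 0.63, 0.79, 0.04 and 0.78 above its wild-type mean in knockout replicates 1 to 4. How many of all genes show such a split was not counted. The smallest p that the 70 arrangements of 4 against 4 arrays allow is 0.0286. After adjustment over the 9 genes, a gene that reached this p alone would not pass. The adjusted test could therefore hardly show a departure of a single gene. No departure from Adgre1 passed, which does not show that the genes follow Adgre1. The SE of the 9 departures ran from 0.07 to 0.26.

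**Figure D4:**
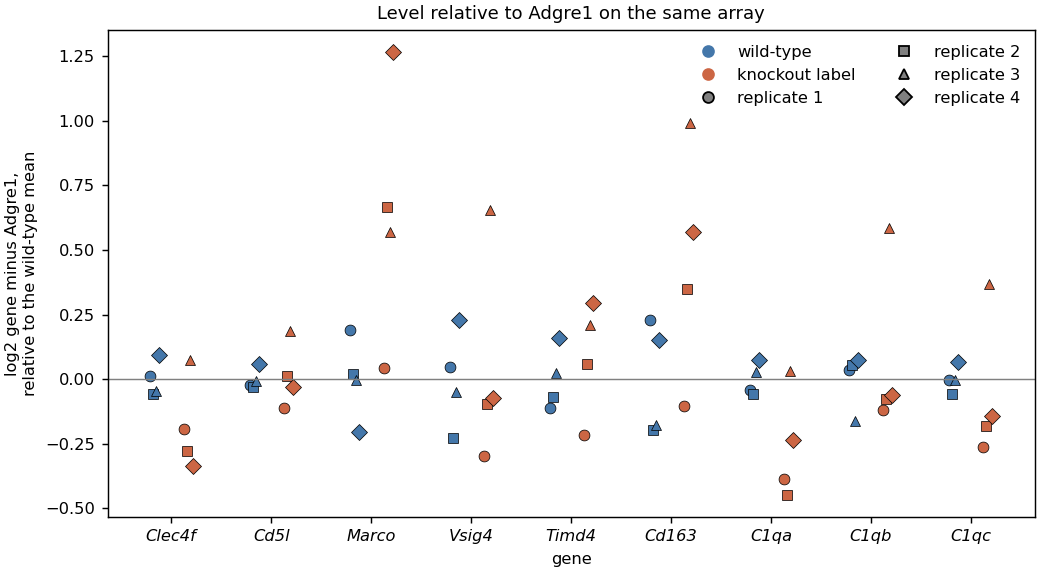
Log2 level of each gene minus that of Adgre1 on the same array, relative to the wild-type mean (y axis), for the 9 other genes (x axis), with colour for genotype label and symbol for replicate number. Knockout replicate 3 (triangle) is the highest knockout array for Clec4f, Cd5l, Vsig4, Cd163, C1qa, C1qb and C1qc, and the other knockout arrays of C1qa lie between -0.45 and -0.23.

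As sets, the 6 resident markers had a median difference of 0.63 with 3 called, and the 4 general genes 0.53 with 2 called, beside a median of 0.03 over all genes. The resident median relative to the wild-type mean was 0.48, 0.83, 0.43 and 0.91 in knockout replicates 1 to 4, and the general median was 0.44, 0.66, 0.24 and 0.68. In wild-type replicates 1 to 4 these medians were -0.04, -0.15, 0.17 and 0.09 for resident markers and -0.07, -0.12, 0.19 and 0.03 for general genes. Both sets were highest in knockout replicate 4 and lowest among knockout arrays in replicate 3.

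Other genes of the resident Kupffer state gave 3 calls among 14, with 11 not passing (median difference 0.21). The 3 that rose were Pltp, a phospholipid transfer protein (0.53; limma adjusted p = 0.0152), Il18bp, which neutralises interleukin-18 (0.60; adjusted p = 0.0206), and Spic, a transcription factor of hemoglobin-clearing macrophages (0.60; adjusted p = 0.0499). Spic read 6.96, 6.49, 6.79 and 6.58 in wild-type arrays and 7.12, 7.57, 7.06 and 7.49 in knockout arrays. Pltp and Il18bp each kept the call in 5 and Spic in 2 of the 8 fits that leave out 1 array. Folr2, a folate receptor of resident macrophages, had -0.01 (adjusted p = 0.955) and Fcna, a lectin that starts complement activation, -0.28 (adjusted p = 0.0934). No gene of this list was called without wild-type replicate 1, wild-type replicate 2 or knockout replicate 4. With all 8 arrays, 8 of 14 had an unadjusted limma p under 0.05. Of all 22180 genes, 4699 had an unadjusted limma p of 0.04998 or less. Hpgd and Fcna, among the 8, were lower in knockout, with all knockout arrays below all wild-type arrays. The difference of Hpgd was -0.51 (limma adjusted p = 0.0713). Folr2, Fcna and Hpgd were named after their values were seen.

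Of 18 other general macrophage genes measured, 11 rose and 7 did not pass, all 18 with positive differences (median 0.58). The 7 were Cd68, Mertk, Fcgr1, Aif1, Mpeg1, Lyz2 and Mrc1, at 0.19 (Aif1) to 0.44 (Fcgr1). Genes of monocytes and neutrophils also moved in these arrays, and their part in the values of this list was not tested. The smallest p belonged to Fcer1g, the signalling chain of Fc receptors, which read 9.99, 9.82, 10.12 and 10.13 in wild-type arrays and 10.75, 10.96, 10.74 and 10.94 in knockout arrays (0.84; limma adjusted p = 0.00587). Spi1, the transcription factor PU.1 whose core motif is capitalised above, rose by 0.66 (adjusted p = 0.00704), and the galectin Lgals3 by 0.69 (adjusted p = 0.00868). Cd14, a lipopolysaccharide receptor, rose by 2.51 (adjusted p = 0.0105) and was highest in knockout replicate 4. These 4 kept their calls with each of the 8 arrays left out. The count of calls was 6 without wild-type replicate 1 and 7 without wild-type replicate 2 or knockout replicate 4.

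Transcription factors and niche signals of Kupffer cells gave few calls. Of 11 measured factors 3 rose and 8 did not pass (median 0.17). They were Tfec, a macrophage factor of the MiT family (0.78; limma adjusted p = 0.00587), with Spi1 and Spic as above. Of 11 niche genes the receptor Csf1r, on which macrophage survival depends, rose (0.56; adjusted p = 0.0235) and the stellate cell ligand Bmp10 fell by 0.51 on the log2 scale (adjusted p = 0.0447). The other 9 did not pass (median of all 11 -0.09). Csf1r kept its call in 5 and Bmp10 in 1 of the fits that leave out 1 array. The niche count of 2 became 0 without wild-type replicate 1, wild-type replicate 2 or knockout replicate 4, and 1 without wild-type replicates 3 or 4 or knockout replicates 1 or 2.

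Complement genes outside C1q were divided into soluble factors and receptors. None of 11 early complement factors measured, which hepatocytes mostly make, was called by limma (median 0.09), and 1 had an unadjusted p under 0.05. That gene was C1ra, the protease paired with C1q (0.20; adjusted p = 0.214). Over all 22180 genes, 4699 had an unadjusted limma p of 0.04998 or less. Of 11 receptors for complement fragments or C1q, 3 rose and 8 did not pass (median 0.27). They were Itgb2, the shared chain of the C3 fragment receptors (0.57; adjusted p = 0.00795), its partner Itgam (0.71; adjusted p = 0.0334) and Megf10 (0.51; adjusted p = 0.0292), an engulfment receptor. Megf10 had group means of 5.41 and 5.92, below the array medians of 6.09 to 6.22. Itgb2 kept its call in all 8 fits that leave out 1 array, Itgam in 3 and Megf10 in 2. The count was 1 without wild-type replicates 1, 2 or 4 or knockout replicates 3 or 4.

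Of 12 genes listed for receptors and bridging proteins of dying cells, Timd2 among them only as a relative of Timd4, 1 was called. That gene was Timd2, which fell by 0.55 on the log2 scale (limma adjusted p = 0.0348). The other 11 did not pass (median of all 12 -0.06). The call was lost without any 1 wild-type array or knockout replicate 4, and 2 genes were called without knockout replicate 1. Of 7 genes of hemoglobin and heme clearance, the process in which Cd163 takes part, Hmox1, the enzyme that degrades heme, rose by 0.62 (adjusted p = 0.00815), as did Spic, and 5 did not pass (median 0.18). Without any 1 array other than knockout replicates 1 or 3, the count was 1.

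The summed levels above rest on lists of which part was called. Of 14 monocyte genes 5 rose and 9 did not pass (median 0.51), led by Fcgr4, an Fc receptor (1.37; limma adjusted p = 0.00605), and also Chil3 (1.05; adjusted p = 0.0143), Plac8 (1.06; adjusted p = 0.0190) and Ly6c2 (1.54; adjusted p = 0.0362). The neutrophil list had 9 genes that rose, 1 that fell and 4 not called (median 0.75). The granule genes Mmp8 (2.16; adjusted p = 0.00815) and Ngp (2.42; adjusted p = 0.00851) and the chemokine receptor Cxcr2 (0.86; adjusted p = 0.00815) rose, and Prtn3 fell by 0.72 on the log2 scale (adjusted p = 0.0101). Chil3 kept its call in 7, Plac8 in 6 and Ly6c2 in 2 of the 8 fits that leave out 1 array, and Fcgr4, Mmp8, Ngp, Cxcr2 and Prtn3 in all 8. The monocyte count of 5 was 2 without wild-type replicates 1 or 2 and 3 without wild-type replicates 3 or 4 or knockout replicate 4, and the neutrophil count of 10 calls became 6 without wild-type replicates 1 or 3 or knockout replicate 4.

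Lists for cells other than leukocytes had 1 call each. Of 10 sinusoidal endothelial genes Lyve1, a hyaluronan receptor that some macrophages also express, rose by 1.05 (limma adjusted p = 0.00660) and 9 did not pass (median -0.01). Of 10 stellate cell genes Lrat, which stores vitamin A, fell by 1.01 on the log2 scale (adjusted p = 0.0428) and 9 did not pass (median -0.25). That call was lost without any 1 array other than knockout replicate 1, and without that array 3 genes were called. Of 7 hepatocyte genes Tat, a tyrosine-degrading enzyme, rose by 0.51 (adjusted p = 0.0247; lost without wild-type replicates 2, 3 or 4 or knockout replicate 4) and 6 did not pass (median 0.03). None of 8 lymphocyte genes was called by limma (median 0.13), with 1 at an unadjusted p under 0.05, the T cell gene Cd3e (0.45; adjusted p = 0.129). Over all 22180 genes, 4699 had an unadjusted limma p of 0.04998 or less.

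**Figure D5:**
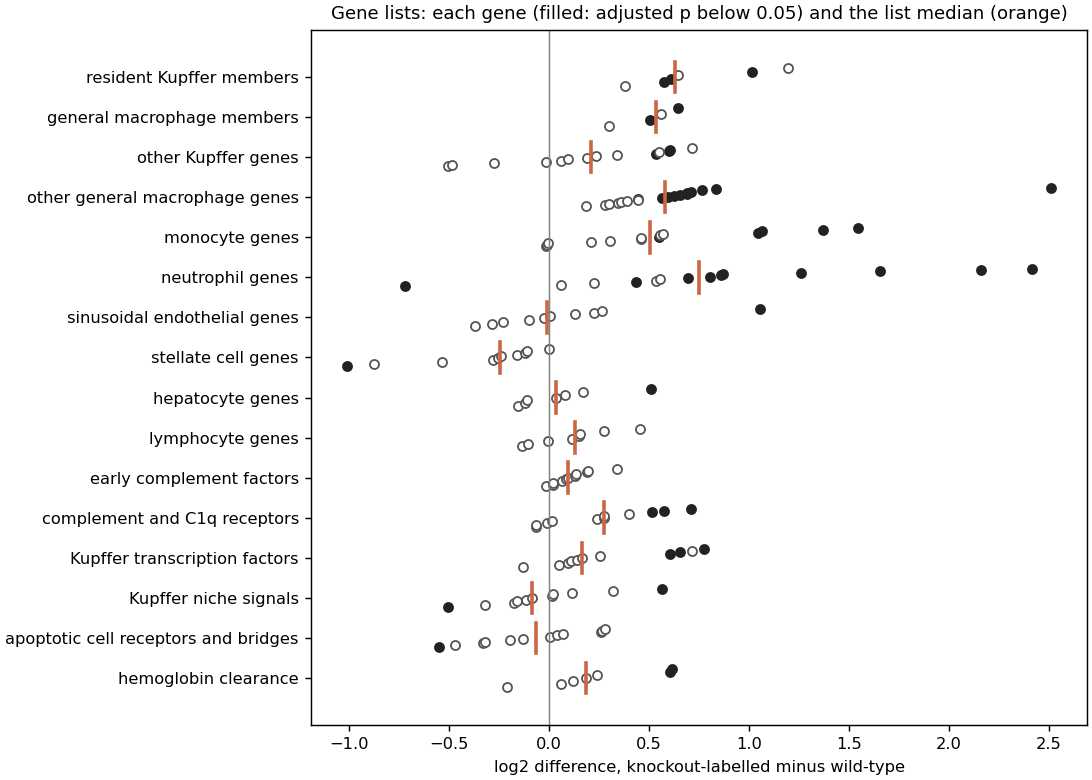
Log2 difference between knockout-labelled and wild-type arrays (x axis) of each measured gene in 16 lists (y axis), with filled points for limma adjusted p below 0.05 and an orange bar at the list median. The 2 sets of Kupffer cell and C1q genes have medians of 0.63 and 0.53, and the early complement factors 0.09.

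Genes were also ordered by how closely their profile followed 3 of the genes, as the root mean square (RMS) difference between gene-centred log2 profiles over the 8 arrays, a description that carries no test. Nearest to Clec4f were Dock10 (RMS 0.04 log2), Tmsb4x (0.05) and Ssx2ip (0.06), beside a profile SD of 0.23 for Clec4f. Each of the 3 also had a low value in knockout replicate 3. Nearest to Cd163 were Tmem268 (0.11), the receptor gene Cd300e (0.13) and Csf2rb2 (0.14), a chain of the interleukin-3 receptor, beside a profile SD of 0.56. Nearest to C1qb were the leukocyte tetraspanin Cd53 (0.05), the phagosomal metal transporter Slc11a1 (0.08) and the integrin activator Fermt3 (0.08), beside a profile SD of 0.33. From C1qb, C1qc ranked 13 and C1qa 715 of 22179 genes, and from C1qa, C1qc ranked 168 and C1qb 5048. The nearest of the 10 genes to Adgre1 was Cd5l, at rank 4, and to Clec4f it was C1qa, at rank 51.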

How the data were processed

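The authors deposited log2 values from RMA, as named with R 3.0.1 in the submitters' processing notes and per the labels, for Affymetrix Mouse Gene 2.0 ST arrays of 8 liver samples. The sources used here give no background settings and no genome build. The number of arrays limits precision. The table holds 41345 rows with array medians of 6.09 to 6.22. Rows were named through the platform annotation: 23521 name 1 gene, 1814 several and 16010 none. Where several rows named a gene (1082 genes), that of highest mean over all arrays was kept.

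Genes were compared with limma 3.58.1 (lmFit, eBayes without trend) in R 4.3.3 over 22180 genes, all 8 arrays, no covariate and no filter, with Benjamini-Hochberg adjustment. Levels relative to Adgre1 were compared with exact two-sided permutation tests in scipy 1.17.1. No p was computed for a list. The limma step was tested on simulated data. The 10 genes, the gene lists and the alternatives were chosen with earlier results of these data known. Named genes were the 10, up to 4 called genes of each list by p (or the 1 with the smallest p), Il10, sex-linked genes and the 3 nearest profiles. Folr2, Fcna, Hpgd and the general macrophage genes that did not pass were named beyond this rule. Listed genes with no row matched to them alone were not analysed here. The comparison is unpaired. Array pairs correlated at 0.976 to 0.994, and the closest pair differed by an RMS of 0.26 log2 units. Alternatives were a filter on low values, other rows, scalings, variance models, the replicate number or the Xist or Y-linked signal as a block, array subsets and thresholds.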

Additional observations from a re-analysis of the deposited data

Results flagged for a closer look

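In a group of 4 arrays, a value was marked when its gap to the nearest other array as a share of the range exceeded Dixon's critical value. Of 96 groups looked at, 7 had such a value, and chance marks about 1 in 20 groups.

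Vsig4 in knockout replicate 1 was low (11.25, the other 3 at 11.61 to 11.62; gap 0.970 of the range). Pltp was low in the same array (10.54, the others 10.72 to 10.73; 0.953). C1qb relative to Adgre1 was high in knockout replicate 3 (2.31, the others 1.61 to 1.66; 0.919), the array in which Adgre1 read 9.35. Cd14 was high in knockout replicate 4 (10.35, the others 8.47 to 8.72; 0.868) and Cxcr2 in wild-type replicate 3 (7.46, the others 7.05 to 7.10; 0.898). Lrat was high in knockout replicate 1 (8.82, the others 7.90 to 8.05; 0.840), and Megf10 was low in knockout replicate 2 (5.67, the others 5.97 to 6.03; 0.844).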

How the results depend on the processing

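The difference of each of the 10 genes kept its direction in all 21 alternatives that refitted the model. The call of C1qb held in 18 and that of Cd163 in 19, and C1qa was called in 0. The number of genes called of the 10 was 2 over every row of the table, 8 with cyclic loess, 9 with array weights, 3 with the replicate block, 1 within the arrays with Xist signal (Cd163), 1 within those with Y-linked signal (Adgre1), 9 at an adjusted p below 0.1 and 3 with a 1.5-fold minimum. Leaving out 1 array gave 2 to 8. An unmoderated test called 0 of the 10 and 0 of all genes, with 9 and 4141 at an unadjusted p under 0.05, against 5 and 699 by limma with moderation. Over all genes the count was 234 over every row, 317 and 171 within the arrays with Xist and Y-linked signal, 1685 at an adjusted p below 0.1 and 377 with a 1.5-fold minimum, and 207 to 1040 with 1 array left out. With cyclic loess 896 of all genes were called, and with array weights 817. The replicate block gave 497 genes, and Cd5l and C1qc lost their calls. Same-numbered arrays were not treated as pairs. Their deviations from the group means correlated across genes at 0.27, 0.04, -0.10 and 0.29, and they also share the Xist or Y-linked signal. With a common median per array the split was 236 higher and 393 lower, against 347 and 352, and Cd5l lost its call. No comparison with Adgre1 passed in any of its 16 alternatives, several of which are too small to reach the threshold. With all 8 arrays, too, a gene alone at the smallest possible permutation p would not pass after adjustment.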
